A study of Mus musculus with 4 samples.

Results

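Lymphocytes reach and leave lymphoid organs by following gradients of chemokines and lipids, and the receptors that read these gradients were measured here as RNA in splenic CD4 T cells. The genes described are Ccr7, S1pr1, S1pr4, Cxcr4, Ccr9 and Gpr183, 6 of the 23234 different symbols in the tables. They were picked out by symbol, with earlier results of these data known, and each stood on a single row of every table. The libraries labelled KO (KO 1 and KO 2) are of helper T cells from the spleens of 43-week-old C57BL/6 mice whose genotype label is RIPK1-KO, a deletion that the series design places in T cells. Those labelled WT (WT 1 and WT 2) are of the same cell type, tissue, strain and age with a wild-type genotype. All titles end in Ctrl, which the labels do not explain, and neither the Cre line nor the deleted part of Ripk1 is given in the sources used here.

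CCR7 reads the chemokines CCL19 and CCL21, which stromal cells of the T cell zone display, and holds naive and central memory T cells in that zone. S1PR1 reads sphingosine 1-phosphate, which is plentiful in blood and lymph and scarce inside the tissue, and draws T cells out of lymphoid organs. CD69 pulls S1PR1 from the cell surface after activation, and the transcription factor KLF2 turns on S1pr1, so that the receptors, their antagonist and their activator form a single circuit of residence and exit.

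Promoter sequence was in the RefSeq table for 4 of the 6 genes (Cxcr4, Gpr183, S1pr4 and Ccr9; build GRCm38.p6). Cxcr4 and Gpr183 are shown because they differed most between the libraries of a group, in KO and in WT, as described further on. Each line holds the 250 bases before the annotated start, 5′ to 3′ on the strand of the gene, with every CG pair in capitals. The Cxcr4 window is chr1:128592300-128592549 (minus strand) and the Gpr183 window is chr14:121965194-121965443 (minus strand).
Cxcr4: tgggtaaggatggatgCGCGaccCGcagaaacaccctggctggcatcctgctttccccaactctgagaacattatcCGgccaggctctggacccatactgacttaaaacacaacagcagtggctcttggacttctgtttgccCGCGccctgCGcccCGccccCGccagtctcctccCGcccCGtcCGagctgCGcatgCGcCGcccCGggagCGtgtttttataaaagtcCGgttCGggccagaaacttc
Gpr183: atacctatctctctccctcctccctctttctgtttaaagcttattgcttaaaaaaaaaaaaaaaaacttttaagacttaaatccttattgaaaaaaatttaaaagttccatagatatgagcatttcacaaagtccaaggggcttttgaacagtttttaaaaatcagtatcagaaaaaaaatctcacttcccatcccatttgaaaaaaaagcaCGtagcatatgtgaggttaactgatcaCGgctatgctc
The windows are unlike in composition. That of Cxcr4 holds 19 CG pairs at a GC content of 61.2%, and that of Gpr183 holds 2 at 32.0%. Among 32851 mouse promoter windows of this length the median was 6 CG pairs, 19.7% held 19 or more and 29.0% held 2 or fewer. S1pr4 had 0 CG pairs and Ccr9 had 3. The motif CACCC, the core bound by KLF factors, was searched on both strands (GGGTG on the other). It was found 1 time each in the windows of Cxcr4, S1pr4 and Ccr9 and 0 times in that of Gpr183, against 52.0% of all windows with at least 1 match. GTAAACA, the FOXO motif (TGTTTAC on the other strand), was in none of the 4 windows and in 3.17% of all. These matches describe the letters of the windows and say nothing of binding.

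Values are FPKM, fragments scaled by transcript length and by the mapped total of the library. From the steps between the lowest values, depth was estimated at about 17400000 and 19000000 fragments in KO 1 and KO 2, against 21200000 and 21900000 in WT 1 and WT 2. Each of the 5 better expressed receptors then rested on about 559 to 5441 fragments per library and Ccr9 on about 176 to 245. These are upper figures, since the longest transcript of each gene was used, and counting error weighs most on Ccr9. Ripk1 itself was higher in the libraries labelled KO, at 10.4 and 9.54 FPKM, against 5.61 and 5.60 FPKM in WT 1 and WT 2. Its log2 change lay 0.35 above that of the median gene, with 76.1% of tested rows lower. It was called higher (log2 change 0.73 ± 0.17, SE; limma adjusted p = 0.0262). The call did not hold with trimmed-mean scaling (limma adjusted p = 0.222), nor on leaving out any of the 4 libraries (0.0583 to 0.118). Every direction below is therefore that of the libraries labelled KO. Whether KO 1 and KO 2, or WT 1 and WT 2, are different mice is not said in the labels; p-values here reflect only how far the 4 libraries spread, a spread that could be technical. With 2 libraries a group, an exact permutation test (two-sided) reaches 0.33 at the lowest.

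The cells carried the RNA of helper T cells. Cd4 stood at 211 and 185 FPKM in KO 1 and KO 2, against 86.3 and 87.3 FPKM in WT 1 and WT 2. It was called higher as deposited and after trimmed-mean scaling, but not after quantile normalization (limma adjusted p = 0.0173, 0.0488 and 0.0507). Zbtb7b and Cd40lg, the other helper T cell markers, were not called as deposited (limma adjusted p = 0.345 and 0.348). Cd8a stood at no more than 0.764 FPKM in any library. Cd8b1, the other chain of CD8, was at 10.3 and 11.3 FPKM in KO 1 and KO 2, against 10.9 and 10.5 FPKM in WT 1 and WT 2. All 8 T cell markers were found, with summed values of 1805 and 1640 FPKM in the libraries labelled KO, against 1238 and 1588 FPKM in WT. Among markers of other cells, the 12 erythroid rows summed to 568 and 455 FPKM in KO 1 and KO 2, against 11.5 and 147 FPKM in WT 1 and WT 2. All 8 tested were called higher as deposited. The 3 rows highest in mean FPKM did not pass after trimmed-mean scaling (limma adjusted p = 0.0757 to 0.0909) or quantile normalization (0.0845 to 0.0948). The part of erythroid RNA in the values below was not tested. The 8 neutrophil markers summed to 21.5 and 53.3 FPKM in KO 1 and KO 2, against 4.43 and 44.9 FPKM in WT 1 and WT 2. The 10 B cell markers summed to 27.6 and 26.7 FPKM in KO 1 and KO 2, against 26.1 and 22 FPKM in WT, with 4 of the 10 under 1 FPKM throughout, and of 4 tested 2 were called higher and 0 lower. In bulk RNA, fewer cells with a transcript and less of it per cell cannot be told apart.

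None of the 6 receptors passed the test between the libraries labelled KO and WT. In limma 0 of 6 passed an adjusted p of 0.05 and 0 of 6 had an unadjusted p under 0.05. Of all 11074 rows tested, 25.6% were called higher and 1.0% lower. The KO and WT values overlapped for all 6 genes, while in 58.5% of tested rows both KO libraries lay above both WT libraries and in 12.1% both lay below. All 6 exceeded 1 FPKM in every library, so the filter on low values did not select them. The median log2 change of the 6 was 0.10, against 0.38 for all rows tested.

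**Figure D1:**
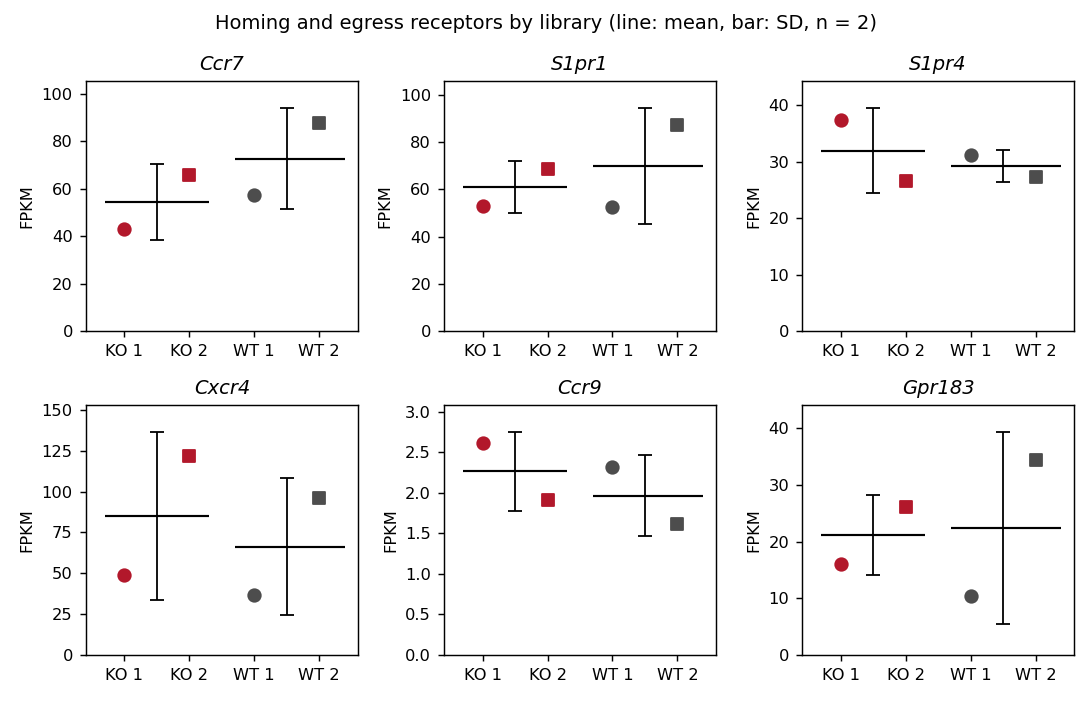
FPKM of each receptor in each library (circles, library 1 of a group; squares, library 2; red, KO; grey, WT), with the mean as a line and the SD as a bar (n = 2 each). The KO and WT values overlap in all 6 panels, and in Ccr7, S1pr1, Cxcr4 and Gpr183 library 2 lies above library 1 in both groups.

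Ccr7 was at 43.0 and 65.8 FPKM in KO 1 and KO 2, against 57.5 and 87.8 FPKM in WT 1 and WT 2. WT 2 was the highest and KO 1 the lowest, and KO 2 lay above WT 1. The means were 54.4 ± 16.1 FPKM in KO and 72.6 ± 21.4 FPKM in WT (SD, n = 2 each), a ratio of 0.749. The log2 change was -0.41 ± 0.31 (SE; limma adjusted p = 0.334), with a 95% interval of -1.14 to 0.32. This was the lowest change among the 6, with 5.66% of tested rows lower still. Ccr7 lay 0.79 below the median gene on the log2 scale as deposited. After trimmed-mean scaling its log2 change was -0.89 and came nearest to the threshold of the 6, without passing it (limma adjusted p = 0.0747).

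S1pr1 was at 53.0 and 68.6 FPKM in KO 1 and KO 2, against 52.5 and 87.3 FPKM in WT 1 and WT 2. WT 2 was the highest and KO 2 came next, while KO 1 and WT 1 were nearly alike. Means of 60.8 ± 11.0 FPKM in KO and 69.9 ± 24.6 FPKM in WT (SD, n = 2 each) put the KO change at -0.16 ± 0.30 on the log2 scale (SE; limma adjusted p = 0.696), with a 95% interval of -0.88 to 0.55. Without WT 2 the log2 change was 0.20 and without KO 1 it was 0.02, so its sign rested on single libraries. It kept below the median gene both as deposited (by 0.54) and after trimmed-mean scaling, where its log2 change was -0.64 (limma adjusted p = 0.121).

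S1pr4, a second receptor for sphingosine 1-phosphate on lymphocytes, was at 37.3 and 26.6 FPKM in KO 1 and KO 2, against 31.2 and 27.2 FPKM in WT 1 and WT 2. Its values spanned the narrowest relative range of the 5 better expressed receptors, with KO 1 the highest and KO 2 the lowest. The log2 change was 0.11 ± 0.24 (SE; limma adjusted p = 0.745; 95% interval -0.45 to 0.67), and -0.36 after trimmed-mean scaling (limma adjusted p = 0.281). S1pr1 and S1pr4 thus read the same lipid, and neither RNA passed the test in either direction.

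Cxcr4, the receptor for CXCL12, which retains lymphocytes in bone marrow and guides them in germinal centres, was at 48.9 and 122 FPKM in KO 1 and KO 2, against 36.6 and 96.0 FPKM in WT 1 and WT 2. The libraries fell by number and not by label: KO 2 and WT 2 were high, KO 1 and WT 1 low. The means were 85.3 ± 51.5 FPKM in KO and 66.3 ± 42.0 FPKM in WT (SD, n = 2 each), and the log2 change was 0.37 ± 0.55 (SE; limma adjusted p = 0.627; 95% interval -0.94 to 1.69). That change equals the median gene within 0.01, and it was -0.10 after trimmed-mean scaling (limma adjusted p = 0.912). It ran from -0.31 without WT 1 to 1.06 without WT 2, so that these data bound the change of Cxcr4 only loosely.

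Gpr183, also called EBI2, reads oxysterols such as 7α,25-dihydroxycholesterol and places activated T and B cells at the border of the follicle. It was at 16.1 and 26.2 FPKM in KO 1 and KO 2, against 10.4 and 34.5 FPKM in WT 1 and WT 2. The WT libraries held both the lowest and the highest value, with both KO libraries between them. The log2 change was 0.10 ± 0.51 (SE; limma adjusted p = 0.896; 95% interval -1.12 to 1.32), and -0.36 after trimmed-mean scaling (limma adjusted p = 0.638). Leaving out WT 1 or WT 2 moved it to -0.72 or 0.92.

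Ccr9, the receptor for CCL25 that directs lymphocytes to the small intestine and thymus, was the lowest of the 6, at 2.61 and 1.92 FPKM in KO 1 and KO 2, against 2.32 and 1.61 FPKM in WT 1 and WT 2. Library 1 was above library 2 in both groups. The log2 change was 0.14 ± 0.21 (SE; limma adjusted p = 0.636; 95% interval -0.37 to 0.65), and -0.19 after trimmed-mean scaling (limma adjusted p = 0.599). Plasmacytoid dendritic cells also carry CCR9, and their marker Siglech was at 10.9 and 11.1 FPKM in KO 1 and KO 2, against 13.8 and 10.9 FPKM in WT 1 and WT 2. The 7 markers of those cells summed to 77.6 and 45.0 FPKM in KO 1 and KO 2, against 43.5 and 57.9 FPKM in WT 1 and WT 2. Most of that sum was Bst2, at 58.2 and 27.1 FPKM in KO 1 and KO 2, against 24.4 and 41.3 FPKM in WT 1 and WT 2. Of 5 tested 1 was called higher, Runx2, while Siglech and Bst2 were not. None of the 7 was at 0 in all libraries. Their part in the Ccr9 value was not tested.

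Ranked by FPKM, which is per length and so can be set side by side between genes, the receptors kept to blocks of places. The blocks were not set apart by level: in WT 1 Cxcr4 was at 36.6, S1pr4 at 31.2 and Gpr183 at 10.4 FPKM. S1pr1, Cxcr4 and Ccr7 shared the top 3 places in every library, S1pr4 and Gpr183 places 4 and 5, and Ccr9 place 6. Within the top 3 places the order was S1pr1, Cxcr4, Ccr7 in KO 1 and Cxcr4, S1pr1, Ccr7 in KO 2. It was Ccr7, S1pr1, Cxcr4 in WT 1 and Cxcr4, Ccr7, S1pr1 in WT 2. These neighbours do not differ beyond their spread. S1pr4 was above Gpr183 in KO 1, KO 2 and WT 1 and below it in WT 2, and in KO 2 the values were 26.6 and 26.2 FPKM. Ccr7 was thus last of the 3 in both KO libraries.

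A ratio of receptors within a library does not move with the scaling of that library. Ccr7 over S1pr1 was 0.810 and 0.959 in KO 1 and KO 2, against 1.10 and 1.01 in WT 1 and WT 2, and the groups did not overlap. The mean log2 ratio differed by -0.25, and by -0.37 without KO 2 and -0.13 without KO 1, the ends of the range with any 1 library left out. Ccr7 over Cxcr4 was 0.878 and 0.541 in KO 1 and KO 2, against 1.57 and 0.914 in WT 1 and WT 2, also apart, with a difference of -0.80 in the mean log2 ratio, which was -1.19 without WT 2, -0.41 without WT 1 and -0.45 without KO 2. S1pr1 over Cxcr4 was 1.08 and 0.564 in KO 1 and KO 2, against 1.44 and 0.909 in WT 1 and WT 2, and overlapped. Of the 15 pairs among the 6 receptors 2 were apart, both with Ccr7 on top of the ratio. Of all pairs of tested rows above 0 in each library, 63.8% were apart, so 2 of 15 is below the background. These 3 pairs were picked after all 15 had been seen, and a ratio shows unequal change without saying which receptor moved.

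**Figure D2:**
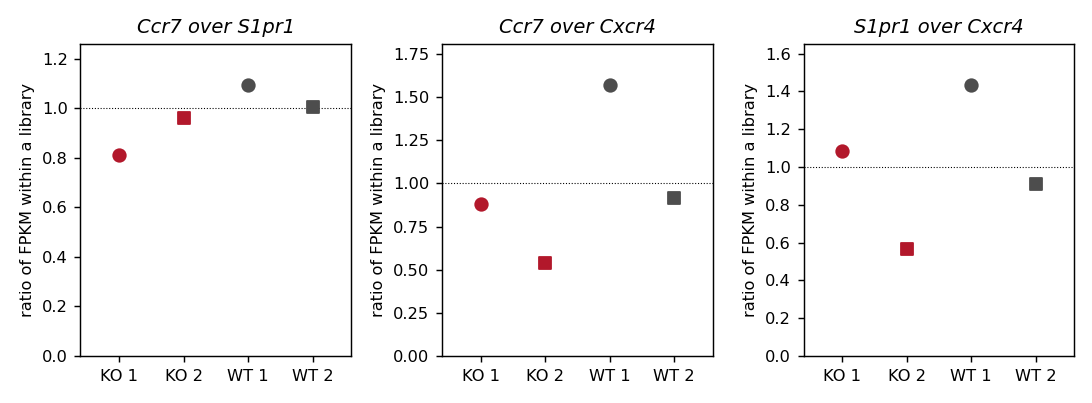
Ratio of FPKM between receptors within each library (circles, library 1; squares, library 2; red, KO; grey, WT; dotted line, equal values). Ccr7 over S1pr1 is 0.810 and 0.959 in KO, against 1.10 and 1.01 in WT, while S1pr1 over Cxcr4 overlaps between the groups.

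For all 6 receptors the 2 libraries of each group differed by more than the group means did. Cxcr4 was 2.49 times as high in KO 2 as in KO 1, and 2.62 times as high in WT 2 as in WT 1; at least 2-fold in both was seen in 1.14% of tested rows. For Ccr7 both ratios were 1.53. S1pr1 had ratios of 1.29 in KO and 1.66 in WT, and Gpr183 of 1.62 in KO and 3.30 in WT. These 4 receptors were thus higher in library 2 of both groups, as were 30.1% of all tested rows. Ccr7, Cxcr4 and Gpr183 were at least 1.5-fold higher in both, as were 2.81% of rows. S1pr4 and Ccr9 went the other way, with ratios of 0.713 and 0.734 in KO and of 0.872 and 0.696 in WT, a direction shared by 19.8% of rows. The pattern was looked for after the values had been seen.

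Cd69 and Klf2, regulators of the circuit, showed the same split between libraries. Of 13 tested regulators of homing, 8 were higher in library 2 of both groups, against 30.1% of all tested rows. Prdm1, Il7r and Klf3 were not, being lower in KO 2 than in KO 1. Of 12 tested adhesion genes 0 were higher in library 2 of both groups. The count was 6 of 18 for other chemoattractant receptors and 1 of 6 for ligands and their enzymes. For G protein coupling it was 9 of 22, and for migration effectors 8 of 27. Cd69, whose protein removes S1PR1 from the surface, was at 106 and 309 FPKM in KO 1 and KO 2, against 60.5 and 264 FPKM in WT 1 and WT 2. Klf2 was at 72.6 and 94.0 FPKM in KO 1 and KO 2, against 60.2 and 137 FPKM in WT 1 and WT 2. So the receptor S1pr1, its activator Klf2 and its antagonist Cd69 were all higher in KO 2 than in KO 1 and in WT 2 than in WT 1. Of the 3 most abundant neutrophil markers, S100a8 and S100a9 were split alike and Ngp was not in KO. S100a8 was at 7.18 and 23.6 FPKM in KO 1 and KO 2, against 1.96 and 18.6 FPKM in WT 1 and WT 2, and S100a9 at 8.34 and 21.3 FPKM, against 2.12 and 19.8 FPKM. Ngp was at 4.73 and 4.72 FPKM in KO 1 and KO 2, against 0.146 and 2.64 FPKM in WT 1 and WT 2. Of the 8 neutrophil markers 4 could be tested and 0 passed between KO and WT, and none was at 0 throughout. The part of neutrophil RNA in the receptor values was not tested. Cd69 and Klf2 did not pass between KO and WT (log2 changes 0.51 and -0.14; limma adjusted p = 0.619 and 0.807).

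**Figure D3:**
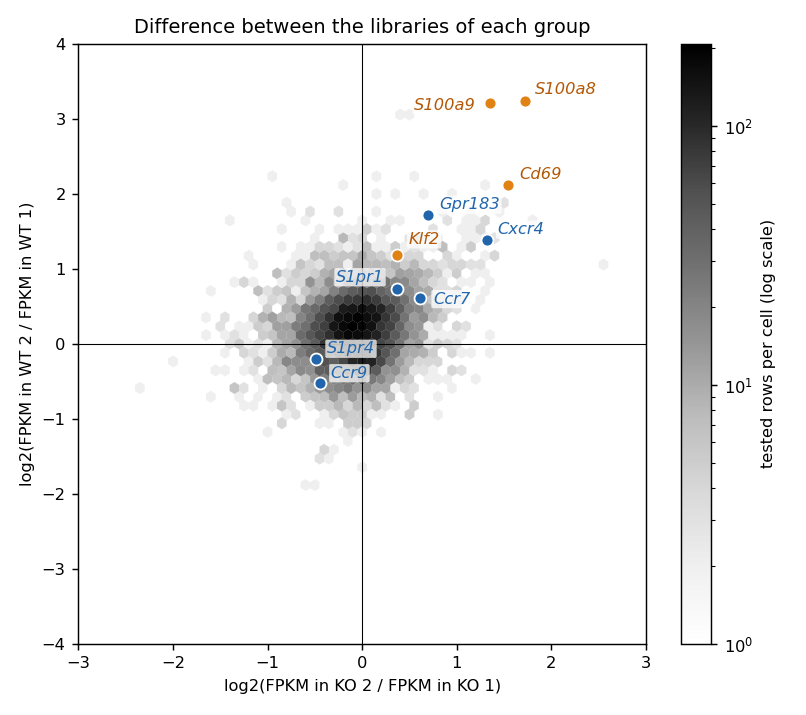
Log2 ratio of FPKM between KO 2 and KO 1 (horizontal) and between WT 2 and WT 1 (vertical) for tested rows above 0 in every library (grey cells, darker for more rows), with the 6 receptors in blue and Cd69, Klf2, S100a8 and S100a9 in orange. Cxcr4, Gpr183, Ccr7 and S1pr1 lie at the upper right with the orange genes, and S1pr4 and Ccr9 in the lower left.

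Likeness of pattern was measured as the root-mean-square difference of log2(FPKM + 1) values over the 4 libraries, each gene centred on its mean, among 10898 other rows. The genes nearest to Ccr7 were Tmem93, Schip1 and Mepce (differences 0.03, 0.05 and 0.05), and those nearest to S1pr1 were Usp2, 1700102P08Rik and Trmt61b (0.04, 0.04 and 0.05). Nearest to Cxcr4 were Ifrd1, Rps27 and Tiparp (0.05, 0.06 and 0.07), and to Gpr183 Hey1, Hist1h4f and Jund (0.05, 0.11 and 0.11). S1pr4 was nearest to Banf1, Tdrkh and Dnase1l2 (0.01, 0.02 and 0.03), and Ccr9 to Adal, Lpar6 and Zfp958 (0.02, 0.02 and 0.03). Among the receptors themselves, S1pr4 and Ccr9 were the most alike, with a difference of 0.08 (Ccr9 ranked 104 for S1pr4, and S1pr4 ranked 88 for Ccr9). Ccr7 and S1pr1 differed by 0.16 (ranks 71 for Ccr7 and 205 for S1pr1), and Cxcr4 and Gpr183 by 0.28 (ranks 65 for Cxcr4 and 56 for Gpr183). With 4 libraries such ranks describe these tables only.

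Several other receptors for chemoattractants rose in the libraries labelled KO. Of 18 tested, 9 were called higher and 0 lower as deposited, against 25.6% and 1.0% of all tested rows. With trimmed-mean factors 7 were higher and 1 was lower, and quantile normalization left 4 higher. Their median log2 change was 0.71, which is 0.33 above the median gene. Cxcr3, which reads interferon-induced chemokines, was at 37.8 and 27.7 FPKM in KO 1 and KO 2, against 7.49 and 10.01 FPKM in WT 1 and WT 2 (log2 change 1.79 ± 0.24, SE; limma adjusted p = 0.0127). Ccr6, the receptor for CCL20, was at 7.99 and 6.48 FPKM in KO, against 1.19 and 0.443 FPKM in WT (limma adjusted p = 0.0106). Both kept their calls after trimmed-mean scaling (limma adjusted p = 0.0227 and 0.0244). Ccr8, the receptor for CCL1, rose too, at 7.08 and 9.27 FPKM in KO, against 0.147 and 1.28 FPKM in WT (limma adjusted p = 0.0127). The 4 markers of regulatory T cells, which carry CCR8 and CCR6, summed to 154 and 197 FPKM in KO 1 and KO 2, against 51.8 and 88.0 FPKM in WT 1 and WT 2. Ctla4 was the largest part of the KO sums, at 95.5 and 142 FPKM, against 11.3 and 51.05 FPKM in WT. As deposited 3 were called higher. The other, Il2ra, was at 27.6 and 27.2 FPKM in KO, against 35.6 and 29.4 FPKM in WT (limma adjusted p = 0.41). Ctla4 did not pass after trimmed-mean scaling or quantile normalization (limma adjusted p = 0.0964 and 0.0865). Ikzf2, another of the 4, passed after trimmed-mean scaling and not after quantile normalization (limma adjusted p = 0.0288 and 0.0515). The part of regulatory T cells in the receptor values was not tested. The 1 receptor lower after scaling was Xcr1, at 13.1 and 13.8 FPKM in KO, against 19.6 and 16.4 FPKM in WT (limma adjusted p = 0.0497 after scaling and 0.165 as deposited). Xcr1 is also a marker of conventional dendritic cells, and 6 of their 8 markers were under 1 FPKM in all libraries. H2-Ab1, the other marker tested, was called higher as deposited, at 11.3 and 6.98 FPKM in KO, against 2.40 and 2.14 FPKM in WT (limma adjusted p = 0.0131). The part of conventional dendritic cells in the Xcr1 value was not tested. Among all tested rows, trimmed-mean scaling gave 4.68% higher and 5.20% lower, and quantile normalization 1.34% and 0.614%.

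Adhesion molecules act beside the homing receptors at the vessel wall. Itgal, the LFA-1 chain that arrests cells once CCR7 has signalled, was at 102 and 90.3 FPKM in KO, against 26.3 and 30.3 FPKM in WT (log2 change 1.73 ± 0.21, SE; limma adjusted p = 0.0115). Itga4 rose 2.72-fold, Itgb1 3.57-fold and Cd44 3.08-fold (limma adjusted p = 0.0129, 0.0133 and 0.0131). Of 12 tested adhesion genes 5 were called higher and 0 lower as deposited, against 25.6% and 1.0% of all tested rows. Trimmed-mean factors kept the count of higher genes at 5, with 1 lower, and quantile normalization gave 3 higher. Among all tested rows these scalings called 4.68% and 1.34% higher.

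**Figure D4:**
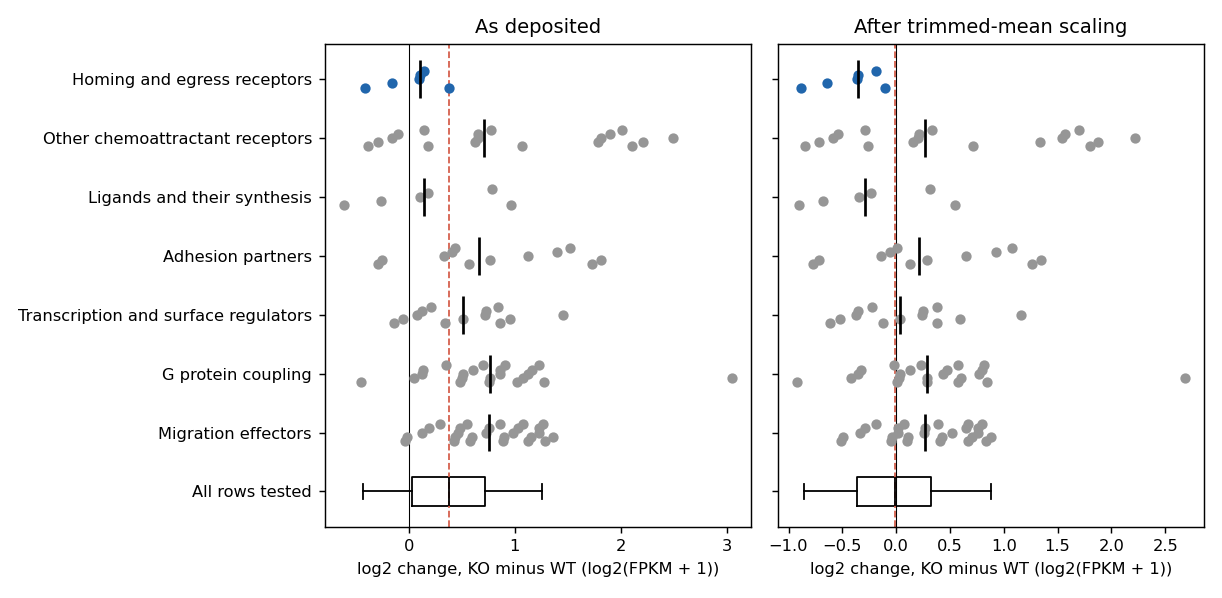
Log2 change between KO and WT for each tested gene of the receptors (blue) and of 6 lists around them (grey), as deposited (left) and after trimmed-mean scaling (right), with list medians as black lines, the median gene as a red dashed line, and all tested rows as a box (quartiles, whiskers from the 5th to the 95th percentile). The receptors run from -0.41 to 0.37 as deposited and from -0.89 to -0.10 after scaling.

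Transcription factors and surface regulators of homing included 5 of 13 genes called higher and 0 lower as deposited. Among all tested rows 25.6% were called higher and 1.0% lower. The higher count was 1 with trimmed-mean factors and 0 with quantile normalization, against 4.68% and 1.34% of all tested rows. Foxo1, which drives Klf2, Il7r and Ccr7, was at 23.9 and 26.5 FPKM in KO, against 16.6 and 23.4 FPKM in WT (limma adjusted p = 0.29). Prdm1, the repressor Blimp-1, rose to 4.67 and 3.21 FPKM in KO, against 0.688 and 0.877 FPKM in WT (limma adjusted p = 0.0131; 0.0344 after trimmed-mean scaling). Il7r, a fellow FOXO1 target, rose 1.67-fold (limma adjusted p = 0.0464), and Klf3, Foxo3 and Tcf7 rose 1.85-fold, 2.39-fold and 1.81-fold (0.0226, 0.0225 and 0.0418). Of these calls trimmed-mean scaling ended all but that of Prdm1.

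All 6 receptors couple to inhibitory G proteins, and several parts of that machinery rose as deposited. Of 22 tested coupling genes 9 were called higher and 0 lower as deposited, against 25.6% and 1.0% of all tested rows. Trimmed-mean factors left 2 higher and quantile normalization 0, against 4.68% and 1.34% of all tested rows. Gnai2, the main inhibitory alpha subunit of lymphocytes, was at 179 and 161 FPKM in KO, against 89.7 and 111 FPKM in WT (limma adjusted p = 0.0522). Gnaq rose 3.32-fold, Gng2 2.59-fold, Gna12 2.82-fold and Rgs3 2.17-fold (limma adjusted p = 0.015, 0.0159, 0.0151 and 0.0176), and of these Gnaq and Gng2 passed after trimmed-mean scaling (0.048 and 0.0494). Rgs1, which shortens CXCR4 and S1P receptor signals, was at 83.2 and 110 FPKM in KO, against 30.5 and 65.5 FPKM in WT (limma adjusted p = 0.072). Adrbk1, the kinase GRK2 that desensitises S1PR1, and Arrb2 did not pass (limma adjusted p = 0.103 and 0.14).

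Of 27 tested effectors of migration 15 were called higher and 0 lower as deposited. With trimmed-mean factors 4 were higher, and with quantile normalization 1. Prex1 and Elmo1, which act with Rac, rose 2.58-fold and 2.31-fold, Dock8 2.29-fold and the myosin Myh9 2.60-fold (limma adjusted p = 0.0129, 0.0139, 0.0141 and 0.0139). Prex1 and Myh9 also passed after trimmed-mean scaling (0.0371 and 0.0365). Most ligands and their enzymes fell below the filter of 1 FPKM in 2 libraries: 6 of 17 could be tested, 2 were called higher as deposited and 0 after either scaling. Those 2 were Sgpl1, the lyase that destroys sphingosine 1-phosphate, at 11.0 and 10.7 FPKM in KO, against 4.84 and 5.26 FPKM in WT (limma adjusted p = 0.0156), and Cers2, a ceramide synthase listed as Lass2, which rose 1.75-fold (0.0386). Across the 6 lists 45 of 98 tested genes were called higher as deposited and 19 after trimmed-mean scaling. Among all tested rows these shares were 25.6% and 4.68%. The lists were set with earlier results of these data known, and no test set them against the receptors.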

How the data were processed

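RNA of 4 libraries was measured, 2 labelled KO and 2 labelled WT. Each library has its own table, deposited by the authors, of FPKM values in 23700 rows under gene symbols. Bowtie 0.12.2 and the build mm8 appear in the submitters' processing notes. The sources used here do not name the program, annotation or filters behind the FPKM. FPKM is relative to the total of its library, so abundant genes that change shift all others. Per the labels' protocols, libraries were made with a NEBNext Ultra kit from 200 ng of total RNA; use of strand in counting is not given.

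Rows with at least 1 FPKM in at least 2 libraries (11074) were tested with limma 3.58.1 (R 4.3.3; intensity trend, two-sided) on log2(FPKM + 1), which understates changes of low genes, with Benjamini-Hochberg adjustment over those rows and a threshold of 0.05. Trimmed-mean factors (30% of log ratios and 5% of levels trimmed at each side) were 1.21, 1.16, 0.791 and 0.905 in KO 1, KO 2, WT 1 and WT 2. The median gene changed by 0.38 (log2) as deposited, -0.01 after that scaling and -0.01 after quantile normalization, and 96.2%, 47.3% and 68.5% of the calls were higher. Depth was read from values of 0.005 to 0.15 FPKM, with an assumed fragment length of 200 nt and GENCODE transcript lengths; fragments of a gene used its longest transcript. Too few values came out as whole fragments for a count test. Gene positions are not given, since the annotation here is of another build.

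The receptors and the lists were chosen with earlier results of these data known. Of 233 list symbols 7 were matched by synonym and 5 were not matched. Named are the 6 receptors, Ripk1, up to 4 genes per pathway list by unadjusted p, set regulators (such as Klf2 and Cd69), up to 3 markers per list by mean, and the 3 genes nearest each receptor; some genes that the rule names are not reported here. The alternatives were other pseudocounts (0.1 and 5), filters, scalings, forms of limma, a replicate block and each library left out; the procedure was tested on simulated data. Scripts used Python 3.11.15, numpy 2.4.6, pandas 2.3.3 and matplotlib 3.10.9.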

Additional observations from a re-analysis of the deposited data

How the results depend on the processing

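No receptor passed an adjusted p of 0.05 in limma as deposited or under any of the 13 alternatives run (Ccr9 could not be tested with a filter at 5 FPKM); the smallest adjusted p was 0.0747 (Ccr7, trimmed-mean scaling). An unadjusted p under 0.05 was reached by Ccr7 and S1pr1 after trimmed-mean scaling, Ccr7 after quantile normalization and Cxcr4 without KO 1. Signs were less stable. After quantile normalization S1pr4, Ccr9 and Gpr183 had log2 changes of -0.22, -0.25 and -0.26, and after trimmed-mean scaling S1pr4, Cxcr4, Ccr9 and Gpr183 of -0.36, -0.10, -0.19 and -0.36, which follows from the shift of the median gene. Leaving out 1 library, the log2 change ran from -0.71 to -0.11 for Ccr7, -0.53 to 0.20 for S1pr1, -0.13 to 0.34 for S1pr4, -0.31 to 1.06 for Cxcr4, -0.030 to 0.31 for Ccr9 and -0.72 to 0.92 for Gpr183. The percentage of rows with a lower change ran from 2.45 to 19.7 for Ccr7, 4.69 to 30.8 for S1pr1, 18.8 to 44.9 for S1pr4, 10.2 to 90.2 for Cxcr4, 20.2 to 52.2 for Ccr9 and 2.70 to 79.8 for Gpr183; with no filter it was 58.3 for S1pr4 and 61.0 for Ccr9, because rows near 0 enter the ranking. Ripk1 no longer passed with no filter (log2 change 0.73, limma adjusted p = 0.118), after quantile normalization (0.27) or trimmed-mean scaling (0.31), or with any library left out (0.67 to 0.79). Of all rows 2832 were higher and 111 lower as deposited, 148 and 68 after quantile normalization, 518 and 576 after trimmed-mean scaling and 0 and 0 with no filter (4281 and 707 at an unadjusted p under 0.05, limma); 171 were lower with robust limma, and 9 to 2173 higher and 1 to 132 lower without 1 library, the fewest without WT 1. Genes of the 6 lists called higher were 45 as deposited, 8, 19 and 0 under the first 3 of these settings and 0 to 43 without 1 library; 0 were called lower as deposited, 2 after trimmed-mean scaling and 0 to 1 without 1 library. A lone library is assumed to vary like the others. The replicate numbers of KO and WT are not said to mark a shared animal or batch: deviations of same-numbered libraries correlated at 0.108 over 11074 rows, and with 2 numbers this cannot show pairing. With the replicate block 3909 rows were higher and 230 lower, 1 list gene was lower, and again 0 of 6 receptors passed (smallest limma adjusted p = 0.295).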

Other observations

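Set side by side by number, Ccr7 in KO was 0.747 and 0.75 times its value in WT (KO 1 over WT 1, KO 2 over WT 2), and Cxcr4 was 1.34 and 1.27 times its value in WT. For Gpr183 the same ratios were 1.54 and 0.760, for S1pr1 1.01 and 0.786 and for S1pr4 1.19 and 0.977, on opposite sides of equality. For Ccr9 they were 1.13 and 1.19. The numbers are not known to pair the libraries, and these ratios were computed after the values had been seen, so no test is attached.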
